A study of Macaca mulatta with 12 samples.

Results

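Transcript levels after 1 month of progesterone treatment alone were compared with placebo in the dorsal raphe nucleus of female rhesus macaques (Macaca mulatta). The comparison rests on 6 of the 12 arrays of the series: the 3 arrays whose source names carry the progesterone codes P1 to P3, and the 3 titled as placebo with the codes OVX1 to OVX3. The other 6 arrays, 3 with estrogen and progesterone together and 3 with estrogen alone, entered the same model so that all 4 groups shared 1 estimate of the spread.

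In the progesterone group, Silastic capsules holding crystalline steroid lay under the skin near the shoulder blade for 1 month until the tissue was taken. The protocol is worded alike for every group, so what the placebo capsules held is not given in the sources used here, nor are doses, ages or hormone levels in blood. The code OVX, a usual short form for ovariectomized, stands only on the placebo arrays, and the labels do not say whether the hormone-treated monkeys were ovariectomized too. The titles of the 3 progesterone arrays give progesterone with EP1, EP2 and EP3, codes shared with the combined group; the source names decided the group. The labels number 3 samples per group without saying that each is a separate monkey, so the errors measure the spread between these samples. With 3 arrays per group, the number of arrays limits the precision.

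The dorsal raphe is the midbrain nucleus from which serotonin neurons project to much of the forebrain, and its tissue also holds GABA neurons, glutamate neurons and glia. Progesterone acts through a nuclear receptor, PGR, that binds DNA together with cofactors and chaperones, and through membrane proteins. In brain it is also turned into neurosteroids such as allopregnanolone, which act directly on GABA-A receptors. In many tissues the level of the nuclear receptor depends on estrogen.

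Each array of a human Affymetrix design reports an intensity for each of 12625 probe sets, on a linear scale. Differences below are on the scale of log2(intensity + 8.27) after quantile normalization, progesterone minus placebo, with the standard error of the limma fit, and "called" means an adjusted p under 0.05 over the 7535 probe sets bright enough to be tested. Human probes were read with macaque RNA, so a level also reflects how well the probes match the macaque transcript. Words such as brighter or dimmer for probe sets of 1 gene describe signal only, and a summed level of markers is compared between arrays, never between lists.

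On principal component 1 the arrays farthest from the rest were estrogen plus progesterone array 1 (28.6) and estrogen array 1 (39.0), neither of which belongs to the groups compared. On component 2 the progesterone arrays lay at −18.2, −9.16 and −15.9, placebo arrays 2 and 3 at −0.48 and 0.42, and placebo array 1 far away at 33.8. The astrocyte glutamate transporter SLC1A2 read 4307, 4229 and 3923 on progesterone arrays 1, 2 and 3, and 3990 and 4244 on placebo arrays 2 and 3, but 293 on placebo array 1. Many of the list counts below are therefore also given without it. The 3′ over 5′ signal ratio of GAPDH, a sign of RNA quality, was 0.89, 1.06 and 1.22 on the progesterone arrays and 1.46, 1.05 and 1.34 on the placebo arrays. For actin it was 1.03, 1.73 and 1.75 with progesterone and 1.54, 1.27 and 1.09 with placebo. Its part in the results was not tested.

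With progesterone, 3 of 7535 probe sets (0.0398%) were called: UBXN7 and PRRC2C rose (0.0265% of those tested) and LPCAT4 fell (0.0133%). UBXN7 encodes an adaptor that links the p97 segregase to ubiquitin ligases. Its intensity was 105, 115 and 138 on the progesterone arrays, against 21.4, 35.8 and 47.1 on the placebo arrays. No progesterone array came near the placebo range, and the difference was 1.61 ± 0.21 (SE, limma adjusted p = 0.0305). With dim placebo readings the size depended on the offset, at 1.81 with an offset of 1 and 1.31 with an offset at the 25th percentile. The 6 arrays with estrogen read 33.9 to 50.1, so the 3 progesterone arrays were above all 9 others.

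PRRC2C, which encodes a large proline-rich protein of cytoplasmic RNA granules, read 227, 261 and 241 with progesterone and 53.4, 104 and 102 with placebo. The groups did not overlap, with placebo array 1 the dimmest, and the difference was 1.46 ± 0.21 (SE, limma adjusted p = 0.0450). The 6 arrays with estrogen lay between, from 106 to 142. The other tested PRRC2C probe set, which is brighter, read 921, 741 and 790 with progesterone and 719, 862 and 835 with placebo, and its groups overlapped.

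LPCAT4, an enzyme that attaches fatty acids to lysophospholipids, read 15.9, 21.7 and 19.7 with progesterone and 157, 103 and 104 with placebo. It fell by 2.24 on the log2 scale (SE 0.28, limma adjusted p = 0.0305). The progesterone readings lie under the pooled 25th percentile of all values, 23.9, and the size depended on the offset. The difference was −2.61 with an offset of 1 and −1.75 with an offset at the 25th percentile. LPCAT4 read 84.1, 154 and 164 with both hormones and 91.4, 131 and 121 with estrogen, so the 3 progesterone readings were the lowest of the 12. Of 24 tested genes of phospholipid remodelling, 1 was called, 9 differences were positive and 15 negative, and the median was −0.06 against −0.0045 over all 5499 tested genes. The next of them by p was CDS1, which makes CDP-diacylglycerol, at 0.56. Likewise UBXN7 was the only 1 called among 25 tested genes of ubiquitin conjugation and p97 adaptors, whose median was 0.04. VCP, which encodes p97 itself, was at 0.14.

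All 3 calls rested on few arrays. None was left when any 1 progesterone array, placebo array 1 or placebo array 2 was taken out, or when only the 6 arrays were fitted, while 11 probe sets were called without the 2 outlying arrays of the other groups.

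**Figure D1:**
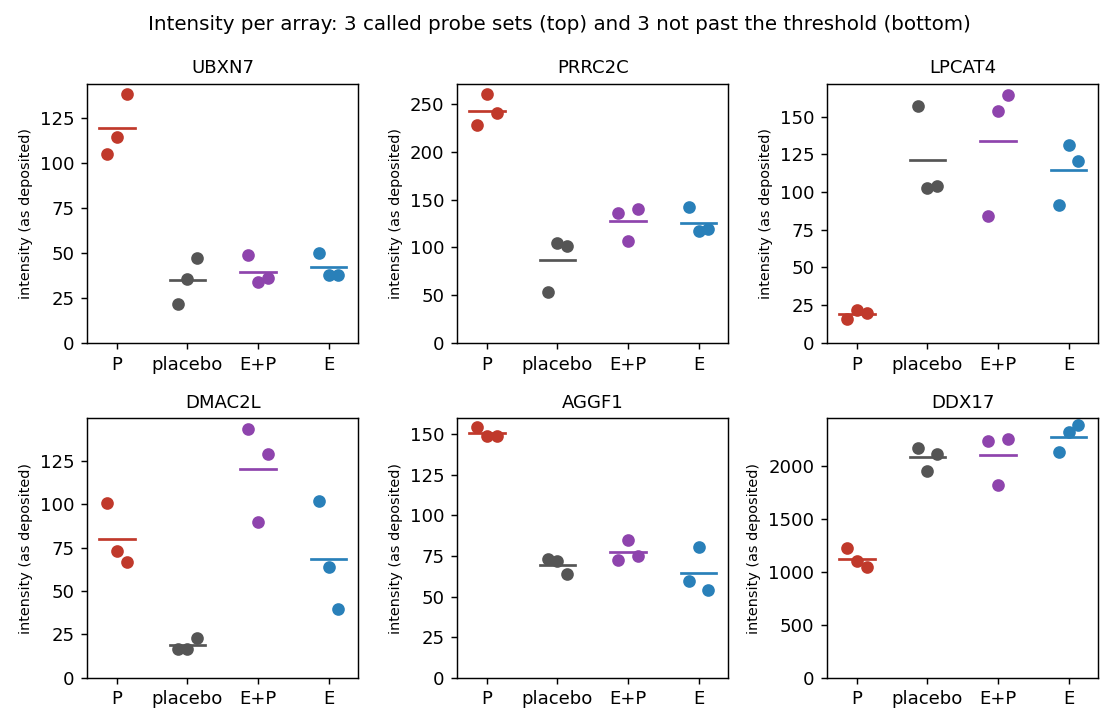
Deposited intensity (linear axis from 0) on each of the 12 arrays for 6 probe sets, the 3 called ones above and 3 that did not pass below. Points are single arrays and lines are group means; the groups from left to right are progesterone (P), placebo, both hormones (E+P) and estrogen (E). UBXN7, PRRC2C and AGGF1 were highest, and LPCAT4 and DDX17 lowest, on the 3 progesterone arrays, while DMAC2L was low only on the placebo arrays.

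Beyond the calls, 621 probe sets (8.24%) had an unadjusted limma p under 0.05, 295 higher (3.92%) and 326 lower (4.33%). The arrays of the groups did not overlap for 1255 (16.7%), 8.56% of all tested being separated on the higher side and 8.1% on the lower side. Counted by gene, with the brightest probe set of each of 5499 genes, 7.62% had an unadjusted p under 0.05, and 8.06% were separated upward and 8.13% downward. Without placebo array 1 the 621 became 456. The progesterone arrays were the most distinct group of the series by a simple count. For 278 probe sets (3.69%) the 3 progesterone arrays lay beyond all 9 others, 159 above and 119 below. The same count was 34 (0.451%) for placebo, 47 (0.624%) for both hormones and 44 (0.584%) for estrogen. Array 1 of each of these 3 groups lay far from the rest on component 1 or 2. An outlying array can keep its group from lying beyond all others, and its part in these counts was not tested. The spread between replicates was similar by the median SD, which does not show a single outlying array. It was 0.22 on the log2 scale with progesterone, 0.24 with placebo, 0.25 with both hormones and 0.29 with estrogen.

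The 20 highest and 20 lowest probe sets with separated arrays, ranked by the rule given with the methods, describe what these arrays differ in. Of the 20 highest, 15 were above all 9 other arrays, and of the 20 lowest, 16 were below them. Over all 7535 tested probe sets, 159 were above and 119 below. The 40 were chosen for lying outside the 3 placebo arrays with a small p, so these counts are a description and no test. Apart from the 3 called, none of the 40 passed the threshold (lowest limma adjusted p 0.0686).

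**Figure D2:**
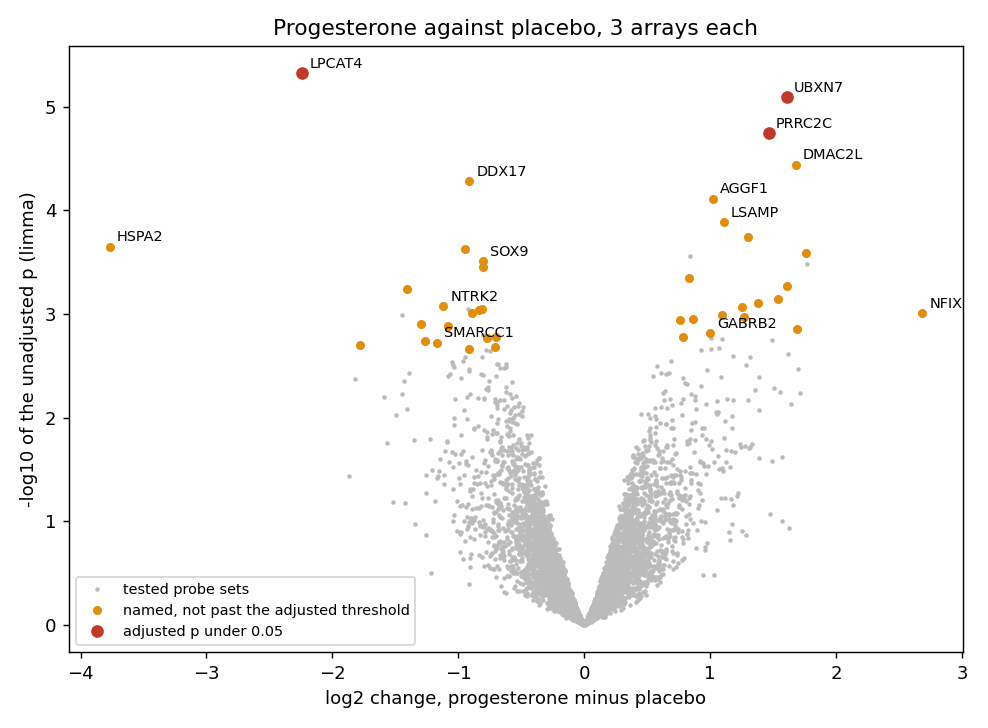
Log2 difference, progesterone minus placebo (horizontal axis), against −log10 of the unadjusted limma p (vertical axis) for the 7535 tested probe sets, 3 arrays per group. Red points are the 3 called probe sets and orange points the other named ones; the HSPA2 point at the far left rests on progesterone readings under the offset, which sets its horizontal position.

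Named genes that act in transcription and RNA processing lay on both sides. NFIX, a nuclear factor I protein of neural stem cells and glia, read 789, 1280 and 737 with progesterone and 75.7, 102 and 284 with placebo, the largest positive value at 2.68 ± 0.62 (SE), not past the threshold (limma adjusted p = 0.268). Placebo array 3 was the brightest of its group, and the 6 arrays with estrogen spanned 93.3 to 502. A dimmer NFIX probe set under the filter read 97.3, 159 and 105 against 21.1, 29.6 and 59.0, while the other tested one overlapped. The bromodomain protein BRD2, which reads acetylated histones, was at 627, 862 and 768 with progesterone and 140, 380 and 404 with placebo (1.38 ± 0.31). Of its other probe sets, 1 gave 0.88 and 1 gave −0.24.

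The RNA helicase DDX17, a coactivator of nuclear receptors, was lower on 1 of its 2 tested probe sets. That probe set read 1223, 1098 and 1042 with progesterone and 2171, 1957 and 2116 with placebo, and from 1824 to 2383 on the 6 arrays with estrogen. The progesterone arrays were thus the dimmest 3 of 12, close to each other and far from the rest. The other DDX17 probe set read 625, 563 and 634 against 582, 655 and 594, with overlap.

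SMARCC1, a core subunit of SWI/SNF chromatin remodelling complexes, showed the same split. Its dim probe set read 41.9, 44.6 and 43.5 with progesterone and 101, 103 and 115 with placebo (−1.17 ± 0.29), and its brighter one 230, 239 and 219 against 207, 238 and 225. Only the dim one separated the groups. The general factor GTF3A, which binds 5S ribosomal RNA genes, was at −0.92 and the HMG-box protein BBX at −1.30. The cyclophilin NKTR, an SR-rich nuclear protein, had 3 tested probe sets, all positive (1.30, 1.39 and 0.32). The initiation factor EIF5B, which joins ribosomal subunits, was at 1.26 on a dim probe set and 0.12 on a brighter one. Of 49 tested splicing factors 27 differences were positive and 22 negative, a split that turned to 22 and 27 without placebo array 1. Of 17 RNA helicases 6 were positive and 11 negative.

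LSAMP, a GPI-anchored protein of limbic circuits, read 263, 151 and 215 with progesterone and 72.8, 95.9 and 106 with placebo, while the 6 arrays with estrogen stayed within 84.1 to 112. The progesterone arrays were all above the other 9 (1.11 ± 0.20). The protocadherin PCDH9 had positive differences on all 3 of its probe sets, at 1.27, 1.22 and 0.65. The neuronal cadherin CDH8 was at 0.86 and the kidney cadherin CDH16 at 1.69.

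On the lower side stood NRXN2, a presynaptic neurexin, with 683, 558 and 657 against 1052, 1113 and 1072 (−0.77 ± 0.19). CTNNA2, a catenin that ties cadherins to actin in neurons, read 494, 366 and 452 with progesterone and 760, 727 and 675 with placebo (−0.70 ± 0.17). Its other probe set gave −0.60. Over the whole list of 53 tested genes of axon growth and adhesion, 26 differences were positive and 27 negative, with 3 higher and 4 lower at an unadjusted p under 0.05, against 3.35% and 4.27% over all genes. Without placebo array 1 the split was 23 to 30, with 2 higher and 3 lower. The list median was −0.02, close to that of all genes.

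The tyrosine phosphatase PTPN4 read 290, 184 and 208 with progesterone and 66.7, 67.4 and 79.0 with placebo, and its other probe set 217, 190 and 129 against 57.3, 46.4 and 56.8. Both separated the groups by a wide margin (1.54 and 1.55). PTPN1, which dephosphorylates the insulin and leptin receptors, read 171, 156 and 143 against 61.6, 102 and 92.4 on the named probe set. On a brighter one it read 260, 269 and 259 against 32.8, 156 and 159, where placebo array 1 was far below the rest, and on the remaining probe set it was at −0.33. Of 29 tested tyrosine phosphatases, 4 were higher and 2 lower at an unadjusted p under 0.05, where all genes gave 3.35% higher and 4.27% lower, and 3 and 2 without placebo array 1. The receptor phosphatase PTPRS was among the lower ones at −1.03, and 12 of the 29 differences were positive.

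CDC42BPA, a kinase acting below the small GTPase CDC42, read 176, 159 and 114 with progesterone and 28.9, 38.1 and 46.8 with placebo. The arrays were well separated (1.76 ± 0.34), but the brighter CDC42BPA probe set was at −0.31. The catalytic PI3-kinase subunit PIK3CB was at 0.79 on 1 probe set and 0.04 on the other. SLC4A7, a sodium bicarbonate cotransporter, read 121, 125 and 175 against 17.9, 49.6 and 66.6 (1.61 ± 0.34). AGGF1, an angiogenic factor, was close to uniform within each group, at 155, 149 and 149 with progesterone and 72.9, 72.0 and 64.1 with placebo (1.02 ± 0.17, limma adjusted p = 0.0972).

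Among receptors on the lower side, NTRK2, the BDNF receptor, read 275, 220 and 219 with progesterone on its named probe set, below every placebo array, of which the lowest read 344 and the highest 693. Its probe sets did not share a direction, with −1.12 and −0.50 on 2 and 0.61 and 0.63 on the other 2. The receptor tyrosine kinase ERBB2 read 47.0, 44.9 and 58.6 against 135, 134 and 79.3 (−1.08 ± 0.26), and 0.20 on another probe set. RAPGEF2, an exchange factor for Rap GTPases, was at −0.81 and −0.26, and the potassium chloride cotransporter SLC12A4 at −1.26, −0.25 and −0.23.

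HSPA2, a member of the HSP70 chaperone family, read 3.72, 2.62 and 3.76 with progesterone and 164, 202 and 97.5 with placebo. The progesterone readings lie under the offset, so no fold is given. Estrogen array 2, without progesterone, read 4.66, also under the offset, and the other arrays with estrogen read 105 to 373. The other HSPA2 probe set read 65.4, 46.1 and 56.0 against 167, 99.0 and 83.0, a separated difference of −0.93 ± 0.31 that did not pass. Over the 30 tested heat shock genes, 18 differences were positive and 12 negative.

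None of the remaining named probe sets passed. Among the higher ones were DMAC2L, linked to mitochondrial ATP synthase, at 1.68, the pigment-signalling ligand ASIP at 1.09 and the ribosomal protein RPS16 at 0.76. Among the lower ones were the actin-binding profilin PFN1 at −1.78, RANBP9 at −0.94, SIPA1L3 at −0.89, APPBP2 at −0.84, the amyloid precursor relative APLP2 at −0.71 and LOC391322 at −1.41. A further RANBP9 probe set was at 1.30, the opposite sign, and a brighter APPBP2 probe set was at −0.11 with overlap.

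Different probe sets of 1 gene often disagreed. Across all tested genes with several probe sets, 59.4% of 2984 ordered pairs had the same sign. When the first probe set of the pair had an unadjusted p under 0.05 this was 73.3% of 273. For the named highest genes, 12 of 17 other probe sets had the same sign (70.6%), and for the named lowest genes 7 of 13 (53.8%).

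None of the tested receptors through which progesterone and related steroids act was called. The nuclear progesterone receptor PGR was read by 1 probe set that stayed between 0.63 and 10.5 on all 12 arrays, under the filter, so it was not tested. Of the 6 tested receptors, 2 differences were positive and 4 negative, with a median of −0.25, and −0.16 without placebo array 1. The arrays were separated for 3 of the 6, all lower, against 8.13% of all genes. GPER1, a membrane estrogen receptor, read 50.4, 39.0 and 62.8 with progesterone and 86.0, 77.0 and 88.2 with placebo (−0.68 ± 0.22). Its groups did not overlap, but it did not pass (limma adjusted p = 0.445). The membrane progesterone binding protein PGRMC2 was at −0.40 and the glucocorticoid receptor NR3C1 at −0.30, both also separated and neither past the threshold. The estrogen receptor ESR1 was at 0.63, where the progesterone arrays read 328, 275 and 308, placebo arrays 2 and 3 read 322 and 273, and placebo array 1 read 82.3.

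Among 14 tested cofactors and chaperones of steroid receptors, 7 differences were positive and 7 negative, and 6 and 8 without placebo array 1. CREBBP, the acetyltransferase CBP, read 88.8, 60.8 and 93.2 with progesterone and 151, 138 and 135 with placebo (−0.76 ± 0.22, not past the threshold). FKBP4, a cochaperone needed for progesterone receptor function in the mouse uterus, was at 0.41, and the corepressor NRIP1 at −0.39. For each of these the arrays of the groups were separated, as they were for 16.2% of all 5499 genes.

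Of 19 tested genes known to be induced by progesterone in other tissues, 10 differences were positive and 9 negative, none had an unadjusted limma p under 0.05, and the median was 0.03, while the split was 9 to 10 without placebo array 1. KLF9, a Krüppel-like factor that cooperates with the progesterone receptor, read 1432, 1196 and 1272 with progesterone and 1077, 1134 and 920 with placebo (0.30 ± 0.17). The zinc finger repressor ZBTB16, known as PLZF, read 254, 195 and 220 against 103, 165 and 196 (0.54 ± 0.37). Neither passed. The glucocorticoid-induced TSC22D3 was at 0.21, while the kinase SGK1 was at −0.35 and the cell cycle inhibitor CDKN1C at −0.35.

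Enzymes and binding proteins of neurosteroid synthesis had 10 positive differences and 1 negative among 11 tested genes, with a median of 0.17. None had an unadjusted limma p under 0.05. The largest was 0.48 for HSD11B1, which regenerates glucocorticoids, and the steroid reductase SRD5A1, which acts on progesterone in the path to allopregnanolone, was at 0.19. Without placebo array 1 the split was 8 positive and 3 negative.

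Defining genes of serotonin neurons were read in both groups. FEV, the transcription factor that marks serotonin neurons, read 104 to 289 on the progesterone arrays and 111 to 172 on the placebo arrays, and TPH2, the neuronal serotonin-synthesizing enzyme, was not analysed here. Of 8 tested serotonin neuron markers, 7 differences were negative and 1 positive, and 2 had an unadjusted p under 0.05, both lower, against 4.27% lower over all genes. That count was 1 without placebo array 1. SLC6A4, the serotonin transporter, read 267, 307 and 272 with progesterone and 476, 432 and 396 with placebo. All 3 progesterone arrays were below all 3 placebo arrays, and the difference of −0.58 ± 0.26 did not pass (limma adjusted p = 0.585). With estrogen present, both hormones gave 456, 495 and 220 and estrogen alone 361, 388 and 377.

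GATA3, a transcription factor of hindbrain serotonin neurons, read 106, 108 and 144 with progesterone and 143, 251 and 183 with placebo (−0.62 ± 0.21). On the normalized scale the groups were separated by a narrow margin, while the deposited intensities just met at 144 with progesterone and 143 with placebo. LMX1B, which specifies serotonin neurons, varied widely within groups: 39.3, 147 and 36.5 against 214, 83.7 and 126. The vesicular monoamine transporter SLC18A2 was at −0.45, and FEV at 0.02. In tissue of mixed cells, fewer serotonin neurons and less RNA per neuron cannot be told apart.

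In the wider serotonin system of 21 genes, 14 differences were negative and 7 positive, with a median of −0.11, and without placebo array 1 the median was −0.05. The receptor HTR2C, coupled to phospholipase C, read 253, 204 and 230 with progesterone and 321, 368 and 396 with placebo (−0.62 ± 0.18, limma adjusted p = 0.393). It had the smallest p of this system. General neuronal markers had 6 positive and 4 negative differences among 10 and a median of 0.04, and 4 and 6 with a median of −0.04 without placebo array 1. The summed level of those neuronal markers was 38939, 39197 and 34987 with progesterone and 37530, 32511 and 33849 with placebo.

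GABA-A receptor subunits, the site of action of allopregnanolone, had 5 positive and 2 negative differences among 7 tested. GABRB2, a beta subunit, read 233, 200 and 210 with progesterone and 107, 86.9 and 117 with placebo (a log2 difference of 1.0, SE 0.24, limma adjusted p = 0.313). It was above all 9 other arrays, the highest of which read 182. GABRA3, an alpha subunit, had a value of 1.25 that came from placebo array 1 alone: it read 272, 126 and 134 with progesterone, and 6.77, 140 and 181 with placebo. Genes for GABA synthesis and uptake had 6 negative and 2 positive differences among 8, and none had an unadjusted p under 0.05, against 1 without placebo array 1. GAD1, the main GABA-synthesizing enzyme, read 1229, 1044 and 713 against 1205, 1346 and 1308, with overlap (−0.41 ± 0.22).

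Glutamate receptors split 5 positive to 7 negative among 12 tested genes, with 2 lower at an unadjusted p under 0.05 (4.27% over all genes), and 1 to 11 without placebo array 1, with 0 at that level. GRM5, a metabotropic receptor, read 318, 269 and 240 with progesterone and 431, 439 and 359 with placebo (−0.53 ± 0.19). The kainate receptor subunit GRIK1 read 28.0, 57.2 and 61.6 against 142, 76.5 and 87.3 (−0.98 ± 0.34). Both separated the groups and neither passed.

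Synaptic vesicle genes had 20 negative and 8 positive differences among 28, with a median of −0.15, and 23 to 5 without placebo array 1. At an unadjusted limma p under 0.05 there were 2 higher and 1 lower, against 3.35% and 4.27% over all genes, and 0 and 1 without placebo array 1. The arrays were separated upward for 2 and downward for 2. The vesicle SNARE VAMP1 was on the higher side, with 1456, 1523 and 1451 against 1041, 1226 and 893 (0.48 ± 0.19), while VAMP2 was at −0.40.

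The cyclic AMP pathway, which carries signals from many neurotransmitter receptors to protein kinase A and CREB, had 18 negative and 14 positive differences among 32 genes. Those with an unadjusted limma p under 0.05 were 4, all lower, against 4.27% lower over all genes, and 3 without placebo array 1. The adenylyl cyclase ADCY9 read 92.2, 43.5 and 70.7 with progesterone and 364, 125 and 157 with placebo (−1.43 ± 0.41). Another cyclase, ADCY8, read 72.3, 38.9 and 61.9 against 91.1, 101 and 83.5 (−0.66 ± 0.25), and the CREB relative ATF2 read 135, 149 and 133 against 209, 235 and 201 (−0.58 ± 0.25). The fourth was CREBBP, described above among the cofactors. All were separated between the groups and none passed.

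Ion channels gave a mixed result, with 1 gene higher and 4 lower at an unadjusted p under 0.05 among 34, against 3.35% and 4.27% over all genes. Without placebo array 1 there were 0 higher and 3 lower. KCNJ6, a G-protein-gated potassium channel, read 174, 114 and 142 with progesterone and 265, 239 and 200 with placebo (−0.67 ± 0.24). The pacemaker channel HCN2 was at −0.45 and the leak channel KCNK3, on the higher side, at 0.57.

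**Figure D3:**
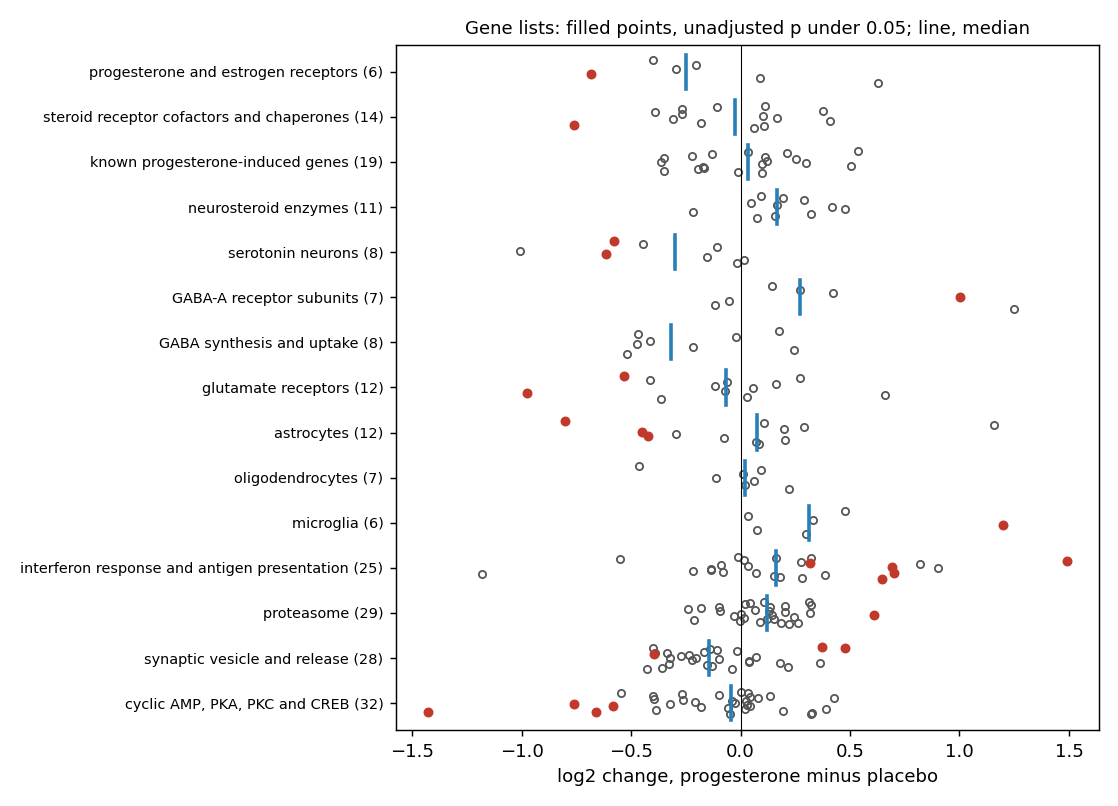
Log2 difference, progesterone minus placebo (horizontal axis), for the tested genes of 15 lists, each gene by its brightest probe set, with the number tested in brackets. Filled points have an unadjusted limma p under 0.05, open points do not, and blue lines are list medians; serotonin neuron markers lie mostly left of 0 and microglia markers all lie right of it.

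Astrocyte genes did not share a direction. Of 12 tested markers 7 differences were positive and 5 negative, and the 3 with an unadjusted p under 0.05 were all lower, against 4.27% lower over all genes. That count was 2 without placebo array 1 and 1 with the arrays shifted to a common median. SOX9, the transcription factor of astrocyte lineage, read 193, 139 and 165 with progesterone and 283, 311 and 297 with placebo, and at least 272 on the 6 arrays with estrogen. The progesterone arrays were thus the lowest 3 of 12 (−0.80 ± 0.16, limma adjusted p = 0.177).

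GFAP, the astrocyte intermediate filament, read 955, 985 and 1125 against 1356, 1425 and 1294 (−0.42 ± 0.16). GLUL, glutamine synthetase, read 465, 584 and 480 against 916, 616 and 621 (−0.45 ± 0.20). Both were separated from placebo, but GFAP on the arrays with estrogen spread over both ranges. SLC1A2 was at 1.16 with placebo array 1 and at −0.11 without it. The summed astrocyte marker level, which includes SLC1A2, was 18200, 17485 and 18462 with progesterone and 15192, 15742 and 16072 with placebo. This was the opposite direction to SOX9, GFAP and GLUL. The low SLC1A2 reading on placebo array 1 lowers the sum of that array. With SLC1A2 taken out, placebo array 1 lies above the progesterone arrays and placebo arrays 2 and 3 below them, so the sums do not separate the groups. The part of this summed level in the 3 lower values was not tested.

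All 6 tested microglia markers had positive differences, with a median of 0.31. CD14, the myeloid coreceptor for bacterial lipopolysaccharide, read 232, 256 and 238 with progesterone and 115, 119 and 73.3 with placebo (1.20 ± 0.45). It was separated, but the arrays with estrogen spread from 77.2 to 287, and it did not pass (limma adjusted p = 0.528). AIF1, known as IBA1, was at 0.30, CD68 at 0.33 and the signalling adaptor TYROBP at 0.48, all with overlap. Summed, the microglia markers read 1106, 1278 and 1515 with progesterone and 1070, 964 and 965 with placebo, without overlap. This sum includes CD14, the only 1 of the 6 markers with separated arrays. With CD14 taken out, progesterone array 1 falls below placebo array 1, so the sums of the groups overlap. The markers ITGAM and PTPRC were under the filter.

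Interferon response and antigen presentation genes had 17 positive and 8 negative differences among 25, with a median of 0.16. Of these, 5 had an unadjusted limma p under 0.05, all higher, against 3.35% higher over all genes, and 3 did so without placebo array 1. IRF9, a DNA-binding factor of the interferon response, read 176, 189 and 152 with progesterone and 90.6, 39.2 and 45.8 with placebo (1.49 ± 0.37, limma adjusted p = 0.313). All 6 arrays with estrogen, at 36.7 to 135, were below the progesterone arrays.

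IFIT1, an interferon-induced sensor of foreign RNA, read 290, 431 and 395 against 231, 201 and 248 (0.69 ± 0.18), but the arrays with estrogen also read 307 to 424 and another IFIT1 probe set was at 0.05. The upstream factor IRF3 read 525, 560 and 523 against 412, 425 and 459 (0.32 ± 0.14), and the class I light chain B2M was at 0.65. The class II genes disagreed, with HLA-DQB1 at 0.70 and HLA-DPB1 at −1.18.

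**Figure D4:**
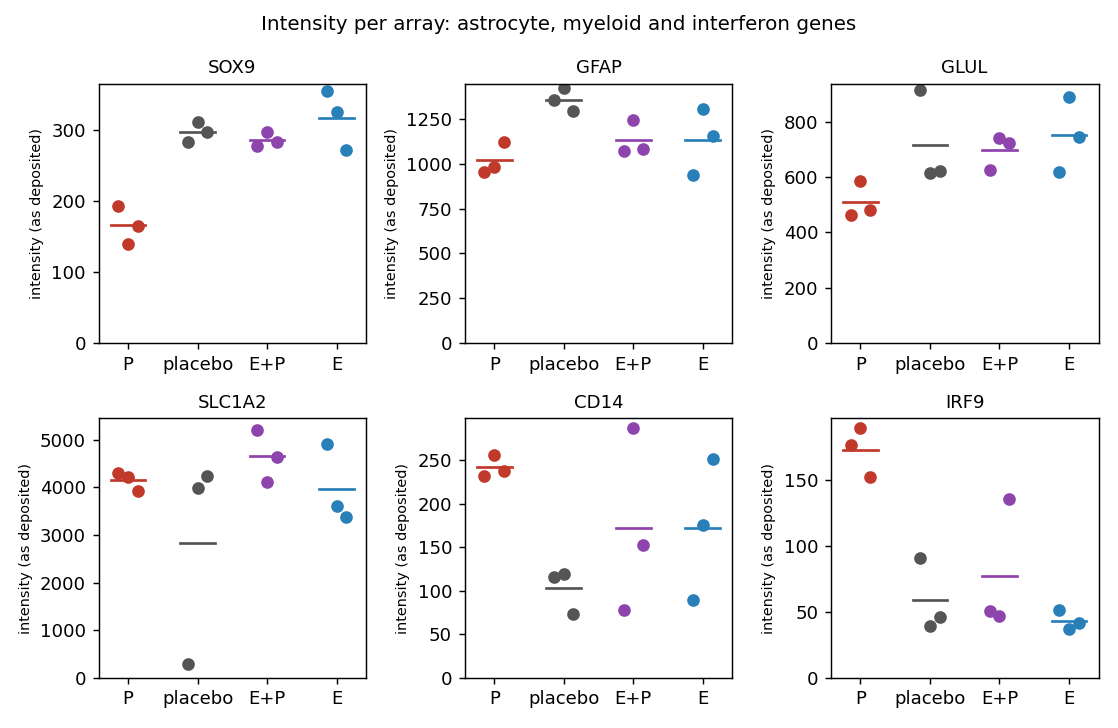
Deposited intensity (linear axis from 0) on each of the 12 arrays for 4 astrocyte genes, the myeloid gene CD14 and the interferon pathway gene IRF9. Points are single arrays and lines group means, with progesterone (P) at the left, then placebo, both hormones (E+P) and estrogen (E); SOX9 was lowest and IRF9 highest on the progesterone arrays, and SLC1A2 shows placebo array 1 at 293.

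Proteasome subunits had 22 positive and 7 negative differences among 29, with a median of 0.12, and 26 to 3 without placebo array 1. PSMB7, the subunit with trypsin-like activity, read 627, 682 and 621 with progesterone and 337, 492 and 456 with placebo (0.61 ± 0.17, limma adjusted p = 0.353). It was the only subunit with an unadjusted p under 0.05, where all genes gave 3.35% higher and 4.27% lower. The regulatory subunits PSMD8, PSMD3 and PSMC2 were at 0.31, 0.32 and 0.32 with separated arrays. Of the 29 subunits 7 were separated upward and 0 downward, against 8.06% and 8.13% of all genes. Ribosomal proteins depended on the scaling and on single arrays. The 25 positive and 20 negative differences after quantile normalization became 30 and 15 with the values as deposited, and 32 and 13 without placebo array 1. Their summed level was 119490, 160585 and 157243 with progesterone and 150791, 121166 and 124963 with placebo, so progesterone arrays 2 and 3 and placebo array 1 were the high ones.

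Neural transcription factors had members on both sides, 2 higher and 3 lower at an unadjusted p under 0.05 among 23, against 3.35% and 4.27% over all genes. Without placebo array 1 there were 1 higher and 3 lower. Besides NFIX and SOX9, the progenitor factor SOX2 was at 1.10, the homeobox factor PBX3 at −1.05 and the POU factor POU3F2 at −0.80. PBX3 read 244, 337 and 309 with progesterone and 659, 661 and 585 with placebo, a clear gap. POU3F2 read 84.2, 67.5 and 60.7 with progesterone and 141, 123 and 124 with placebo, and 84.7 to 122 on the arrays with estrogen, so its lowest 3 readings of 12 were those of progesterone. Tenascin-R (TNR), an extracellular matrix protein of perineuronal nets, read at most 27.2 on the progesterone arrays and at least 47.2 on the placebo arrays (−1.82 ± 0.51). None of these passed.

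Markers of other tissue that a dissection could include were few among the tested genes. Blood, ependyma, meninges, endothelium, oligodendrocyte, cerebellum and catecholamine neuron lists held 2 to 7 tested genes each. They had no gene at an unadjusted p under 0.05, against 7.62% of all genes. Lists this small cannot show that the dissections were alike. The summed noradrenaline and dopamine neuron markers were 930, 975 and 544 with progesterone and 1131, 887 and 968 with placebo. Summed oligodendrocyte markers were 18915, 26025 and 20311 against 20643, 17706 and 18063.

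The design allows the progesterone difference to be read again in the presence of estrogen, as both hormones minus estrogen, on 6 arrays none of which is a progesterone or placebo array, though all 12 were normalized, filtered and fitted together. The 295 probe sets that were higher with progesterone alone, median 0.66, had a median of 0.04 with estrogen present, and 58.3% of them were positive against 50.3% of all tested. The 326 that were lower, median −0.65, had a median of −0.03, and 54% were negative against 49.7% of all. Both sets were chosen by the difference without estrogen, so their smaller medians on other arrays are a description and no test. Across the 7535 probe sets, which are not independent replicates, Pearson's r between these 2 differences was −0.0097.

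Among the named genes, the 20 highest had a median of 1.29 with progesterone alone and 0.01 with estrogen present, and the 20 lowest −0.93 and −0.06. UBXN7 was at −0.10 with estrogen present, PRRC2C at 0.00 and LPCAT4 at 0.16. DMAC2L kept a positive value of 0.78, and CTNNA2 and LOC391322 kept negative values of −0.45 and −0.50. HSPA2 was at 1.72 with estrogen present, where estrogen array 2 read 4.66. The 40 were chosen for a large difference without estrogen, so their smaller values with it are a description only.

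The difference between the 2 progesterone effects was tested by the interaction in the limma fit. It called 0 probe sets, and 376 (4.99%) had an unadjusted p under 0.05. Of the 40 named probe sets 36 did so, which the choice of the 40 bears on, with a lowest adjusted p of 0.440. The interaction value was 2.40 for LPCAT4, −1.71 for UBXN7 and −1.46 for PRRC2C. A different response to progesterone with and without estrogen is therefore not shown for any single gene at this number of arrays, nor is the same response shown.

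**Figure D5:**
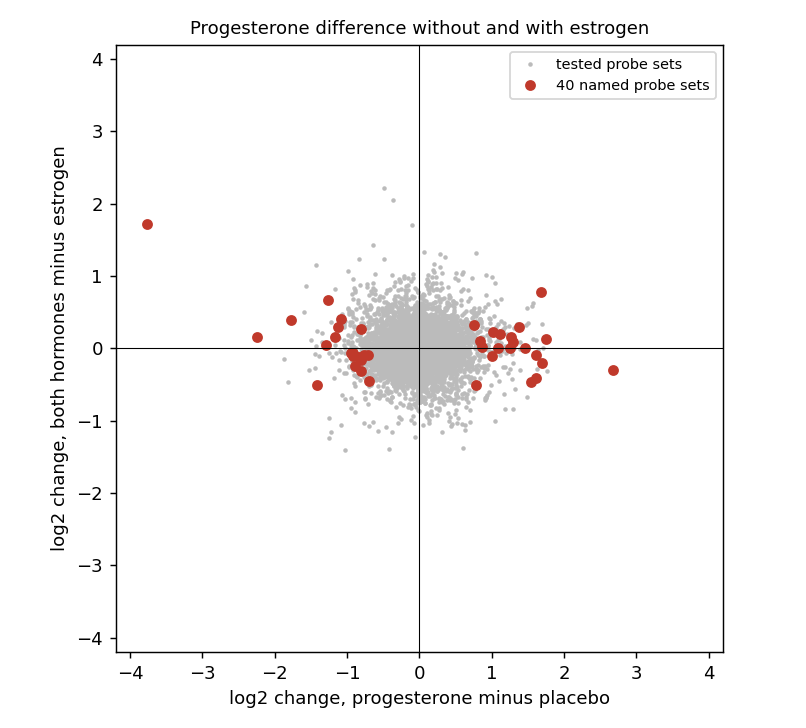
Log2 difference of progesterone minus placebo (horizontal axis) against both hormones minus estrogen (vertical axis) for the 7535 tested probe sets, from 6 arrays each with none shared. The 40 named probe sets are in red and spread along the horizontal axis. On the vertical axis the median was 0.01 for the 20 highest and −0.06 for the 20 lowest. HSPA2, at the far left and at 1.72 on the vertical axis, rests on readings under the offset.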

How the data were processed

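The authors deposited 1 intensity per probe set and array, on a linear scale; the values share a 2% trimmed mean of about 200.1 on every array. Per the labels' protocols, Trizol extraction and a Qiagen column came before biotin labelling. How probes were summarised, with which software and on which build is not given in the sources used here. Probe sets were named from the platform probe table: 10943 had 1 gene symbol, 545 several and 1070 none, beside 67 array controls, which stayed out of all tests. Only single-symbol probe sets were named.

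Intensities were converted to log2(intensity + 8.27), the offset being the pooled 10th percentile, and quantile normalized. A filter on the mean of the 12 arrays took out the dimmest 40% (5023) and kept 7535. Group means of all 12 arrays were fitted with limma 3.58.1 (R 4.3.3, lmFit and eBayes, 2-sided) with Benjamini-Hochberg adjustment and a threshold of 0.05, and the fit was tested on simulated data. Separation of the groups was read on the normalized scale.

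Named probe sets were, per direction, the called ones and then those with the smallest unadjusted p under 0.01 with separated arrays, up to 20. From each gene list, up to 4 members with the smallest p were added, with all serotonin neuron genes, the steroid receptors and every marker list. A gene entered a list by its brightest tested probe set. The members, lists and rules were chosen with earlier results of these data known, and lists were described by counts and medians without a test. Same-numbered progesterone and placebo arrays did not deviate together (correlations −0.22, −0.20 and −0.06), so the numbers were not used as pairs. Other same-numbered arrays were not compared in this way. Estrogen array 1 and estrogen plus progesterone array 1 lay apart from the rest together on component 1 (39.0 and 28.6). Alternatives changed the scaling, filter, offset, variance model, array weights, block and arrays used. Probe and promoter sequences were not used here.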

Additional observations from a re-analysis of the deposited data

Results flagged for a closer look

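Of the 67 array controls, 7 were higher on all 3 progesterone arrays than on all 3 placebo arrays and 6 were lower on all 3. Among the tested probe sets, on the normalized scale, 8.56% were separated on the higher side and 8.1% on the lower side. The controls were thus separated about as often as other probe sets. These controls took no part in the tests. The human Alu control, which reads repeat-derived transcripts, averaged 24839 with progesterone and 20171 with placebo, and spanned 18162 to 30222 on the 6 arrays with estrogen. The 5′ GAPDH control averaged 9379 with progesterone and 7490 with placebo. The antisense GAPDH control for the 3′ part averaged 73.6 with progesterone and 46.2 with placebo, and that for the 5′ part 20.2 with progesterone and 8.88 with placebo. The 3′ part of the 18S ribosomal RNA control averaged 108 with progesterone and 71.6 with placebo, and the 3′ part of the 28S control 83.7 with progesterone and 72.0 with placebo. The mouse Fas control, for which these samples hold no matched transcript, averaged 26.7 with progesterone and 9.27 with placebo, at dim readings. Each is listed here as a signal outside the main measurement that lay above the placebo arrays.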

How the results depend on the processing

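The count of 3 calls became 1 with the values as deposited, 5 without the filter, 1 with the lowest 60% left out, 6 with array weights, 0 with only the 6 arrays compared and 11 without estrogen array 1 and estrogen plus progesterone array 1; it was 4, 4, 3 and 2 with a median shift, an offset of 1, an offset at the 25th percentile and a variance trend with robust fitting. Leaving out 1 array at a time gave 0 to 6 calls, with 0 for each progesterone array, placebo arrays 1 and 2, estrogen plus progesterone array 2 and estrogen array 3, 1 for estrogen plus progesterone arrays 1 and 3, and 6 without estrogen array 1 (the settings on arrays of the other groups were added after the data were seen, as were the list counts without placebo array 1). With the replicate number as a block, the count was 0 over all 12 arrays and 0 over the 6. The numbers were not taken as pairs in the main fit. Over its alternatives the limma adjusted p of UBXN7 ranged from 0.0117 to 0.508 (called in 8 of 20, and under the filter in 4 others), that of PRRC2C from 0.0176 to 0.508 (7 of 24) and that of LPCAT4 from 0.00344 to 0.508 (13 of 23). The 621 probe sets at an unadjusted p under 0.05 became 950 without the filter, 963 with array weights and 425 with the lowest 60% left out. The interaction count of 0 became 1 without the filter, 2 with array weights, and between 0 and 1 when 1 array was left out. Signs turned in 13 probe sets near 0 or set by 1 array, none of them called. With array weights CA1 was at −0.0093 and COL1A1 at 0.044. When 1 array was left out in turn, values spanned −0.91 to 0.073 for ADRA1B, −0.0059 to 0.22 for ADRA2C, −0.11 to 0.18 for CA1, −0.28 to 0.17 for COL1A1, −0.056 to 0.92 for DNAH9, −0.018 to 0.69 for GNAZ, −0.030 to 0.15 for MBP, −0.28 to 0.0021 for NEFL, −0.0045 to 0.45 for NEFM, −0.29 to 0.062 for PTGDS, −0.11 to 1.81 for SLC1A2, −0.27 to 0.038 for SLC6A2 and −0.14 to 0.22 for TF. The cause was not tested. Counting each named probe set under each alternative as 1 value, 4674 kept their direction and side of the threshold, 39 lost a call and 16 gained one. The human probes, the low readings of many probe sets and 3 arrays per group limit what can be seen, and a difference missed here is not shown to be absent.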

Other observations

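Some control probe sets were lower with progesterone. The antisense probe set for the 3′ part of the Cre spike-in read 25.6, 13.5 and 11.2 on the progesterone arrays and 133, 186 and 143 on the placebo arrays, with 18.5 to 325 on the 6 arrays with estrogen. The matching sense control read 6826, 9936 and 7962 with progesterone and 12142, 7190 and 10253 with placebo, with overlap.

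Apolipoprotein D (APOD), a lipid carrier of glia, read 188, 186 and 479 with progesterone and 170, 98.0 and 28.4 with placebo, a wide spread within both groups (1.57 ± 0.87, not past the threshold). The dynorphin precursor PDYN read 63.3, 35.0 and 27.3 with progesterone and 124, 94.3 and 55.8 with placebo (−1.03 ± 0.34, overlapping). The detoxifying enzyme MGST3 read 991, 998 and 838 against 1859, 1331 and 1467 (−0.70 ± 0.21), and the antiapoptotic MCL1 at most 62.2 against at least 73.4 (−0.60 ± 0.20), both separated and neither past the threshold.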
